A study of Homo sapiens with 12 samples.

Results

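The genes described here are 38 targets of NRF2, a transcription factor of the oxidative stress response. They were found by gene symbol in the deposited count table, which held all 38 among its 26535 features. All 38 passed the filter on low counts, which left 18228 features for testing. CYP4F11 is the 1 member that passed it through the A549 libraries alone, with at least 10 counts in 1 of the H1299 libraries.

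In resting cells KEAP1, an adaptor of the CUL3 and RBX1 ubiquitin ligase, binds NRF2 (gene NFE2L2) and sends it to the proteasome. Oxidants and electrophiles modify KEAP1, and NRF2 then enters the nucleus, pairs with a small MAF protein and binds antioxidant response elements at genes for glutathione, thioredoxin, NADPH and detoxification enzymes. BACH1 competes for the same elements. In lung cancer the pathway is often switched on by mutations of KEAP1 or NFE2L2, and A549 is a widely used example of a line with a mutated KEAP1. The sequences of these genes were not examined here.

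The libraries come from A549 and H1299 cells, established human lines of non-small-cell lung cancer that the labels give as wild type in genotype. Each line carried a lentivirus for overexpression of VGF, a secreted neuropeptide precursor, or the empty vector of that virus, in 4 groups of 3 libraries that the design text calls biologically independent. A549 was grown in DMEM/F12 and H1299 in RPMI-1640, both with fetal bovine serum and antibiotics, so a difference between the lines cannot be told apart from the medium. The treatment note of all 12 libraries names only the empty vector, and the groups follow the titles and characteristics.

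Library totals ran from 31378171 to 41919484 counts. VGF stood at 2.02 to 2.74 CPM (the count scaled to library size, with TMM factors) in A549 with empty vector and 1201 to 1361 CPM with VGF, and at 77.2 to 90.5 and 886 to 1114 CPM in H1299. CDKN2A, which A549 is known to lack, had 0 to 11 counts in 5 A549 libraries and 51 in A549 VGF library 2, against 5158 to 7075 in H1299. The same A549 VGF library held 461 CPM over 12 endothelial markers, against 76.2 to 93.2 CPM in the other A549 libraries and 24.5 to 30.9 CPM in H1299.

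One H1299 library bears directly on the genes described here. H1299 empty vector library 2 held counts for 57 of 84 features, none of them a member or another listed gene, that had at least 20 CPM in every A549 empty vector library and at most 0.05 CPM in H1299 empty vector libraries 1 and 3. The 3 H1299 VGF libraries held counts for 14 to 17 of them. Leaving out 1 read-through feature that was also high in the H1299 VGF libraries, the sum of these features in library 2 was 0.137% of the mean sum in A549 with empty vector, against 0.0184 to 0.0254% in the H1299 VGF libraries. Results that move most with this library are given with and without it.

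The core of the antioxidant response element was searched as TGACNNNGC, on both strands, in RefSeq promoters (GRCh38.p14) that span 250 bases before to 50 bases after a gene's start. Promoters were matched for 27 of the 38 members. Of these 27, 11 (40.7%) held the core in 1 or more promoters, against 16.1% of all 27305 gene symbols. Counted by promoter, the core was in 12 of 36 (33.3%), against 13.3% of all 35116 promoters. The match describes these letters only. The 7 sequences below show elements of members from different branches of the pathway whose levels are given further on, with the core in capitals and the strand of the gene read 5′ to 3′. A core on the opposite strand is shown as its reverse complement.
GCLM (chr1:93909446-93909474, minus strand): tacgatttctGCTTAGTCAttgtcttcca
GPX2 (chr14:64942849-64942877, minus strand): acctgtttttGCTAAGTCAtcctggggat
TXNRD1 (chr12:104215650-104215718, plus strand): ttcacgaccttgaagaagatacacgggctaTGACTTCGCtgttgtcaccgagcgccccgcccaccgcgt
ME1 (chr6:83431150-83431218, minus strand): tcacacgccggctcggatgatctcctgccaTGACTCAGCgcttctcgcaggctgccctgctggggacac
IDH1 (chr2:208255176-208255244, minus strand): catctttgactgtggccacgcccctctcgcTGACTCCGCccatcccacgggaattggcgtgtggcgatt
EPHX1 (chr1:225825246-225825314, plus strand): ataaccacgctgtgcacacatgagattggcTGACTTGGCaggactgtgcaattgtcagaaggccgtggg
CYP4F11 (chr19:15934985-15935053, minus strand): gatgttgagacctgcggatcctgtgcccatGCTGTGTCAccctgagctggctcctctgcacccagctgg
The cores begin 34 bases before the start in GCLM, 122 in GPX2, 99 in TXNRD1, 137 in ME1, 143 in IDH1, 78 in EPHX1 and 156 in CYP4F11. All 7 genes were higher in A549, but by very different amounts, from 2.18-fold for IDH1 with empty vector to far larger folds for GPX2 and CYP4F11, whose H1299 levels rest on few counts and are given below with and without library 2.

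The first comparison asked how the lines differ with empty vector. The members were chosen with earlier results of these data known, so their counts describe the list and do not test it. Of the 38 members, 37 were higher in A549 and 1, GSTM3, was lower, where 38.6% of all tested features were called higher and 38.5% lower (edgeR quasi-likelihood test, adjusted p under 0.05). Without overlap between the libraries of both lines, 37 were higher and 1 lower, where 40.3 and 40.7% of all features were. A log2 fold change over 2 was reached by 30 members, against 15.3% of all features, over 3 by 25 members, against 11.5%, and over 6 by 10 members, against 6.18%. The median log2 fold change was 3.46 over the members and -0.006 over all features. Since RNA was measured in bulk, fewer cells that express a gene and less RNA per cell cannot be told apart.

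The members together took 4.53 to 4.77% of all counts in each A549 library, VGF libraries included, and 0.321 to 0.339% in each H1299 library. The 5 aldo-keto reductases AKR1B1, AKR1B10, AKR1C1, AKR1C2 and AKR1C3 alone took 2.00 to 2.11% of the counts in A549. They took 0.00349 to 0.00398% in 5 H1299 libraries and 0.00756% in H1299 empty vector library 2.

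**Figure D1:**
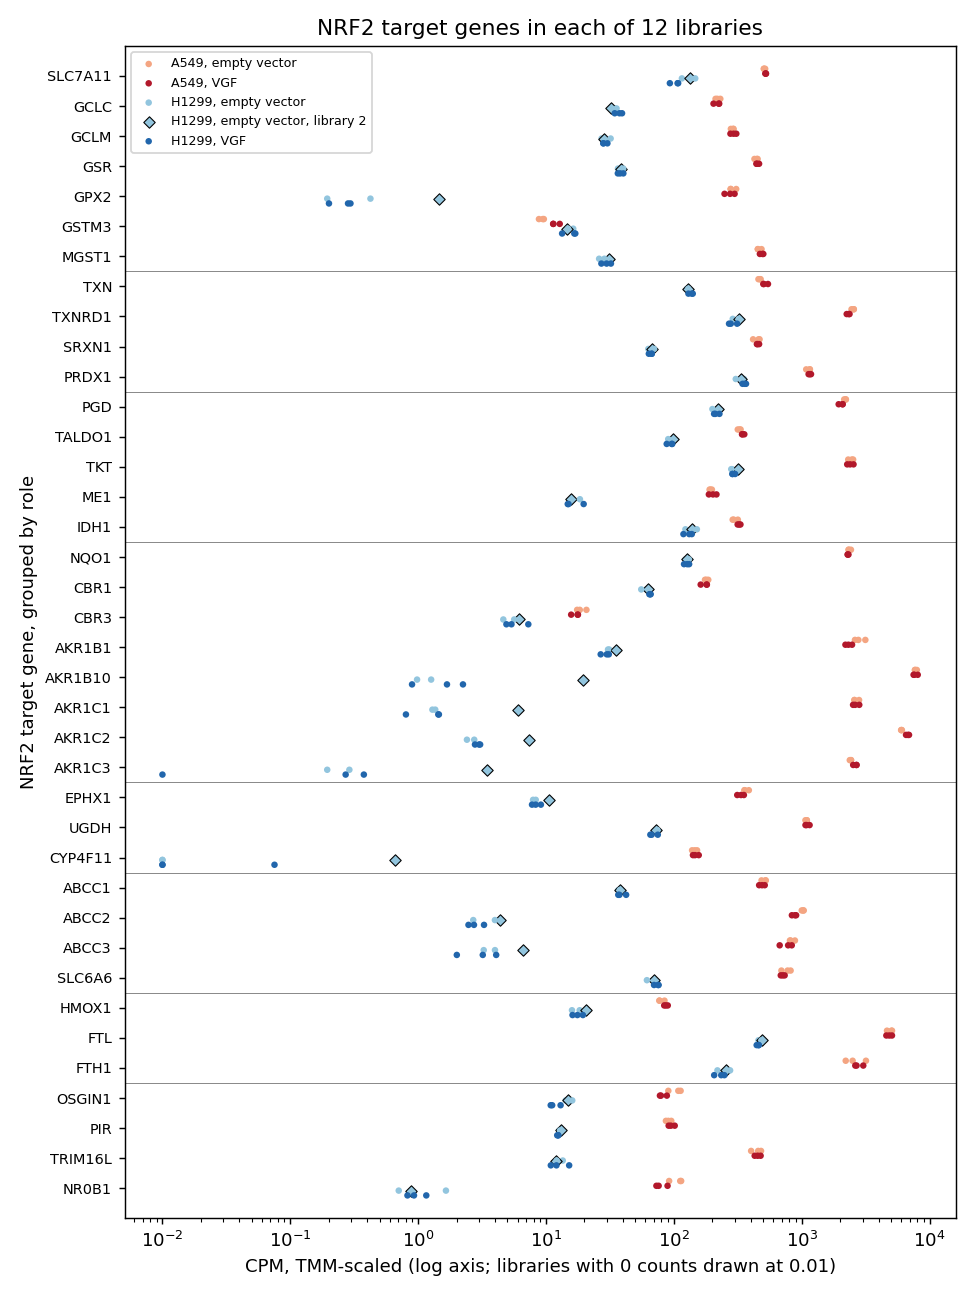
Level of each of the 38 NRF2 target genes in each of the 12 libraries, in CPM with TMM scaling on a log axis, grouped by role; each point is 1 library, diamonds are H1299 empty vector library 2, and libraries with 0 counts are drawn at 0.01. All members but GSTM3 lie higher in A549 libraries than in any H1299 library, and for AKR1B10, AKR1C1, AKR1C2, AKR1C3, GPX2 and CYP4F11 the diamond lies above the other H1299 points.

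**Figure D2:**
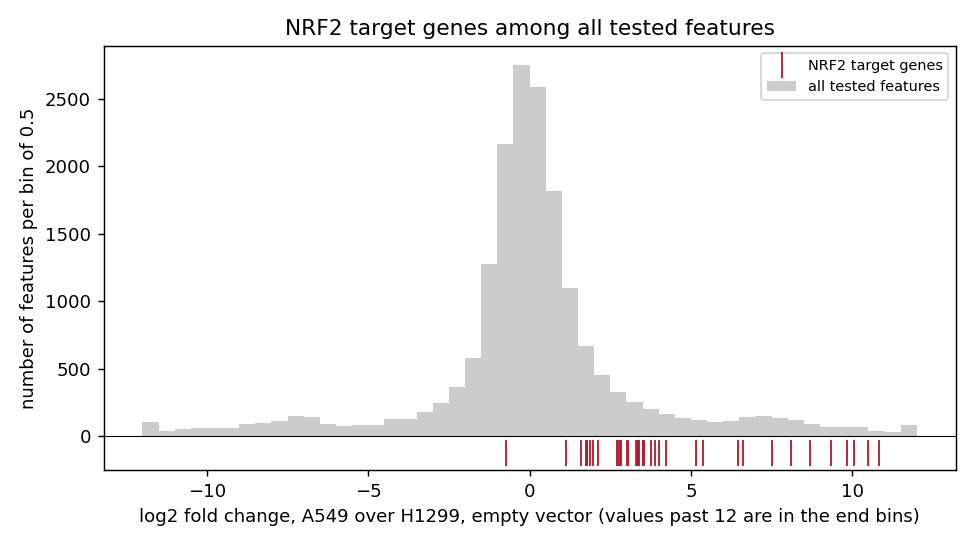
Distribution of the log2 fold change of A549 over H1299 with empty vector for all 18228 tested features (grey bars, bins of 0.5, values beyond 12 in the end bins) and the 38 NRF2 target genes (red ticks). The ticks lie from -0.72 to 10.83, with their median at 3.46, while the bars centre near 0.

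Glutathione genes make, recycle and use the main thiol antioxidant of the cell, and 6 of the 7 were higher in A549. GCLC, the catalytic subunit of glutamate-cysteine ligase, stood at 219, 231 and 212 CPM in A549 empty vector libraries 1 to 3 and at 34.3, 32.3 and 35.6 CPM in those of H1299. GCLM, its modifier subunit, stood at 291, 279 and 293 CPM in A549 and 27.2, 28.3 and 32.04 CPM in H1299. The differences were 6.48-fold and 9.86-fold, with adjusted p = 1.00e-12 and 2.19e-13, and no library of one line reached the range of the other. GSR, which reduces oxidised glutathione with NADPH, was 452, 446 and 427 CPM in A549 and 36.5, 38.6 and 40.1 CPM in H1299, an 11.5-fold difference. MGST1, a microsomal glutathione transferase, was 454, 454 and 485 CPM in A549 and 26.04, 31.3 and 28.6 CPM in H1299, a 16.2-fold difference. Both were separated without overlap.

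SLC7A11, the cystine carrier that feeds glutathione synthesis, differed less, at 505, 508 and 518 CPM in A549 and 116, 133 and 147 CPM in H1299. That is 3.87-fold with empty vector (log2 1.95, SE 0.0777, adjusted p = 8.89e-11) and 5.09-fold with VGF. GPX2, a glutathione peroxidase of epithelial cells, showed the widest gap of the glutathione genes, with 278, 278 and 308 CPM in A549 and 0.424, 1.45 and 0.195 CPM in H1299. Its fold was 411 with all libraries, 906 without H1299 library 2 and 1041 between the VGF libraries.

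GSTM3, a mu-class glutathione transferase, was the exception in direction, at 9.43, 8.81 and 9.62 CPM in A549 and 16.3, 14.6 and 14.9 CPM in H1299. Its log2 fold change was -0.72 (SE 0.115, adjusted p = 7.66e-05), and -0.40 with VGF (adjusted p = 0.00615). In the deposited FPKM, which are scaled to length, the empty vector difference was not called: it was -0.17 at a pseudocount of 1 and -0.23 at 0.1. Between the VGF libraries the FPKM difference was instead larger than that of the counts, at -1.605 for a pseudocount of 0.1. By library, GSTM3 stood at 2.71, 7.57 and 2.99 FPKM in A549 with empty vector and 4.35, 4.43 and 5.25 FPKM in H1299. With VGF it stood at 3.11, 3.39 and 3.60 FPKM in A549 and 5.92, 16.2 and 11.8 FPKM in H1299. The lower level in A549 was thus called in counts in both comparisons and in FPKM with VGF, and its size differed between the units.

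The thioredoxin system, which reduces protein thiols and peroxides, was higher in A549 in all 4 of its members, with a median log2 fold change of 2.31. TXNRD1, the reductase that recharges thioredoxin with NADPH, was 2557, 2554 and 2454 CPM in A549 and 289, 323 and 322 CPM in H1299, an 8.10-fold difference. SRXN1, which repairs overoxidised peroxiredoxins, was 460.4, 468 and 417 CPM in A549 and 63.2, 67.4 and 69.97 CPM in H1299, a 6.71-fold difference. Of its exonic 75-base sequences 84.6% are shared with the overlapping gene model AL121758.1, so its counts depend on how reads were assigned. Thioredoxin itself (TXN) and the peroxiredoxin PRDX1 differed by 3.65-fold and 3.42-fold (adjusted p = 9.31e-13 and 5.78e-12). Both were already high in H1299, with means of 129 and 331 CPM.

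Enzymes that supply NADPH to these reductases were all higher in A549, 5 of 5. PGD, the decarboxylating dehydrogenase of the pentose phosphate pathway, was 2209, 2217 and 2150 CPM in A549 and 219, 223 and 200.3 CPM in H1299, a 10.2-fold difference. TKT, a transketolase of the same pathway, was 2467, 2526 and 2312 CPM in A549 and 286, 318 and 281 CPM in H1299, an 8.26-fold difference. ME1, the cytosolic malic enzyme, was 198, 193 and 190.4 CPM in A549 and 15.9, 15.7 and 18.4 CPM in H1299, an 11.7-fold difference. The groups did not overlap for any of the 3. TALDO1, the transaldolase of the pathway, and IDH1, the cytosolic isocitrate dehydrogenase, differed least, by 3.39-fold and 2.18-fold (adjusted p = 5.20e-12 and 1.33e-08).

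Quinone and carbonyl reductases held the largest differences, with a median log2 fold change of 8.14 over 8 members, all higher in A549. NQO1, the quinone reductase most used as a readout of NRF2, was 2324, 2338 and 2428 CPM in A549 and 124, 127 and 131 CPM in H1299. The difference was 18.6-fold (log2 4.21, SE 0.0441, adjusted p = 2.04e-15), the smallest adjusted p of the members. CBR1 and CBR3, neighbouring carbonyl reductase genes on chromosome 21, differed by only 3.02-fold and 3.45-fold. NQO1, CBR1 and CBR3 share 17.7, 18.9 and 42.2% of their exonic bases with a gene on the opposite strand, and whether counting used strand is not given in the sources used here.

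AKR1B1, the aldose reductase, was 3148, 2776 and 2611 CPM in A549 and 31.2, 35.1 and 30.6 CPM in H1299, an 88.1-fold difference. AKR1B10, an aldo-keto reductase of retinoids and lipid aldehydes, was 7959, 7676 and 7725 CPM in A549 and 0.981, 19.4 and 1.26 CPM in H1299. In H1299 its second library thus stood more than 10-fold above the other two, and the log2 fold change of the lines was 10.07 with it (SE 0.805), 12.76 without it and 12.24 between the VGF libraries.

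The AKR1C genes encode hydroxysteroid dehydrogenases that also reduce carbonyls, and they lie side by side on chromosome 10. AKR1C1 was 2811, 2588 and 2584 CPM in A549 and 1.29, 6.08 and 1.36 CPM in H1299. AKR1C2 was 6078, 6026 and 5995 CPM in A549 and 2.41, 7.30 and 2.75 CPM in H1299. AKR1C3 was 2429, 2435 and 2378 CPM in A549 and 0.290, 3.43 and 0.195 CPM in H1299. In each of the 3 genes H1299 library 2 was the highest of the H1299 libraries, and every A549 library was far above it. The folds with all libraries were 908, 1447 and 1825, and without that library 1997, 2336 and 9729. AKR1C1 and AKR1C2 share 21.9 and 30.1% of their exonic 75-base sequences with other AKR1C genes, so how reads were divided between them is uncertain. In H1299 with VGF, AKR1C3 had 26 counts in 3 libraries together, which puts its A549 level 12400-fold higher (8463 to 18980, 95% exact Poisson interval, counting error only).

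Among the other detoxification enzymes, EPHX1, the microsomal epoxide hydrolase, was 386, 356 and 359 CPM in A549 and 8.32, 10.6 and 7.93 CPM in H1299. The difference was 41.1-fold, and 45.07-fold without H1299 library 2. UGDH, which makes the UDP-glucuronate used for conjugation, was 1098, 1096 and 1070 CPM in A549 and 72.01, 72.6 and 74.2 CPM in H1299, a 14.9-fold difference. CYP4F11, a cytochrome P450 of fatty acid hydroxylation, was 146, 152 and 139 CPM in A549. In H1299 with empty vector it had 29 counts in library 2 and 0 in libraries 1 and 3. Against all 3 libraries A549 was 653-fold higher (455 to 975, counting interval), and without library 2 at least 4173-fold, with 3 counts over both libraries as the floor. With VGF, H1299 had 3 counts in all, a ratio of 6033 (2065 to 29260).

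Efflux pumps that carry conjugates out of the cell were again split between moderate and very large differences. ABCC1 was 523, 522 and 485 CPM in A549 and 36.8, 37.6 and 37.8 CPM in H1299, a 13.6-fold difference. ABCC2 was 1029, 1001 and 1037 CPM in A549 and 2.70, 4.38 and 3.99 CPM in H1299, a 278-fold difference. ABCC3 was 809, 819 and 885 CPM in A549 and 3.99, 6.56 and 3.26 CPM in H1299, a 181-fold difference. Without H1299 library 2 the folds of ABCC2 and ABCC3 were 306.5 and 229.7. All 3 pumps were separated without overlap. SLC6A6, the taurine carrier, was 819, 776 and 694 CPM in A549 and 69.1, 69.4 and 61.6 CPM in H1299, an 11.4-fold difference.

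The heme and iron genes were higher in A549 by similar factors in both ferritin subunits. FTL, the ferritin light chain, was 5040, 5089 and 4648 CPM in A549 and 459, 486 and 485 CPM in H1299, a 10.3-fold difference. FTH1, the heavy chain, was 3182, 2503 and 2210 CPM in A549 and 219, 256 and 276 CPM in H1299, a 10.5-fold difference. HMOX1, the inducible heme oxygenase, was 77.3, 77.04 and 84.5 CPM in A549 and 18.4, 20.6 and 15.97 CPM in H1299, a 4.34-fold difference. The difference was smaller for HMOX1 than for either ferritin. FTH1 shares 62.4% of its exonic bases with BEST1 on the opposite strand, and 13.7% of its 75-base sequences with pseudogenes.

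Of the remaining targets, OSGIN1, an oxidative stress response gene, was 108, 113 and 90.6 CPM in A549 and 14.3, 14.8 and 16.1 CPM in H1299, a 6.92-fold difference. PIR, which encodes the iron-binding protein pirin, was 90.6, 95.5 and 86.7 CPM in A549 and 12.7, 13.1 and 12.9 CPM in H1299, a 7.05-fold difference. TRIM16L was 481, 457 and 402 CPM in A549 and 13.5, 11.9 and 12.1 CPM in H1299, a 35.7-fold difference, with 27.9% of its 75-base sequences shared, chiefly with TRIM16. The last of them, NR0B1, encodes DAX1, an orphan nuclear receptor of steroid-producing tissues. It was 114, 112 and 91.8 CPM in A549 and 1.65, 0.885 and 0.705 CPM in H1299, a 97.1-fold difference (adjusted p = 6.62e-12). Among the H1299 libraries NR0B1 was highest in library 1, not in library 2, and without library 2 its fold was 88.39.

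The same comparison in the VGF libraries, which shares no library with the first, again gave 37 members higher and 1 lower, where 39.1% of all features were called higher and 38.2% lower. The same numbers were separate without overlap, against 40.1 and 39.5% of features. A log2 fold change over 2 was reached by 31 members, against 15.7% of features, and the median was 3.48. SLC7A11 was the member that passed 2 only with VGF, at 1.95 and 2.35. For most members the values of both comparisons lay close together: NQO1 gave 4.21 and 4.19, GSR 3.52 and 3.56, TXNRD1 3.02 and 3.01, and FTL 3.37 and 3.41. The 5 widest gaps were at genes near 0 in H1299, with 9.33 and 12.38 for CYP4F11, 10.83 and 13.58 for AKR1C3, 10.07 and 12.24 for AKR1B10, 8.68 and 10.02 for GPX2, and 9.83 and 11.06 for AKR1C1. Without H1299 empty vector library 2 the last 4 stood at 13.25, 12.76, 9.82 and 10.96, and CYP4F11 had 0 counts left, so its fitted value is no estimate.

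**Figure D3:**
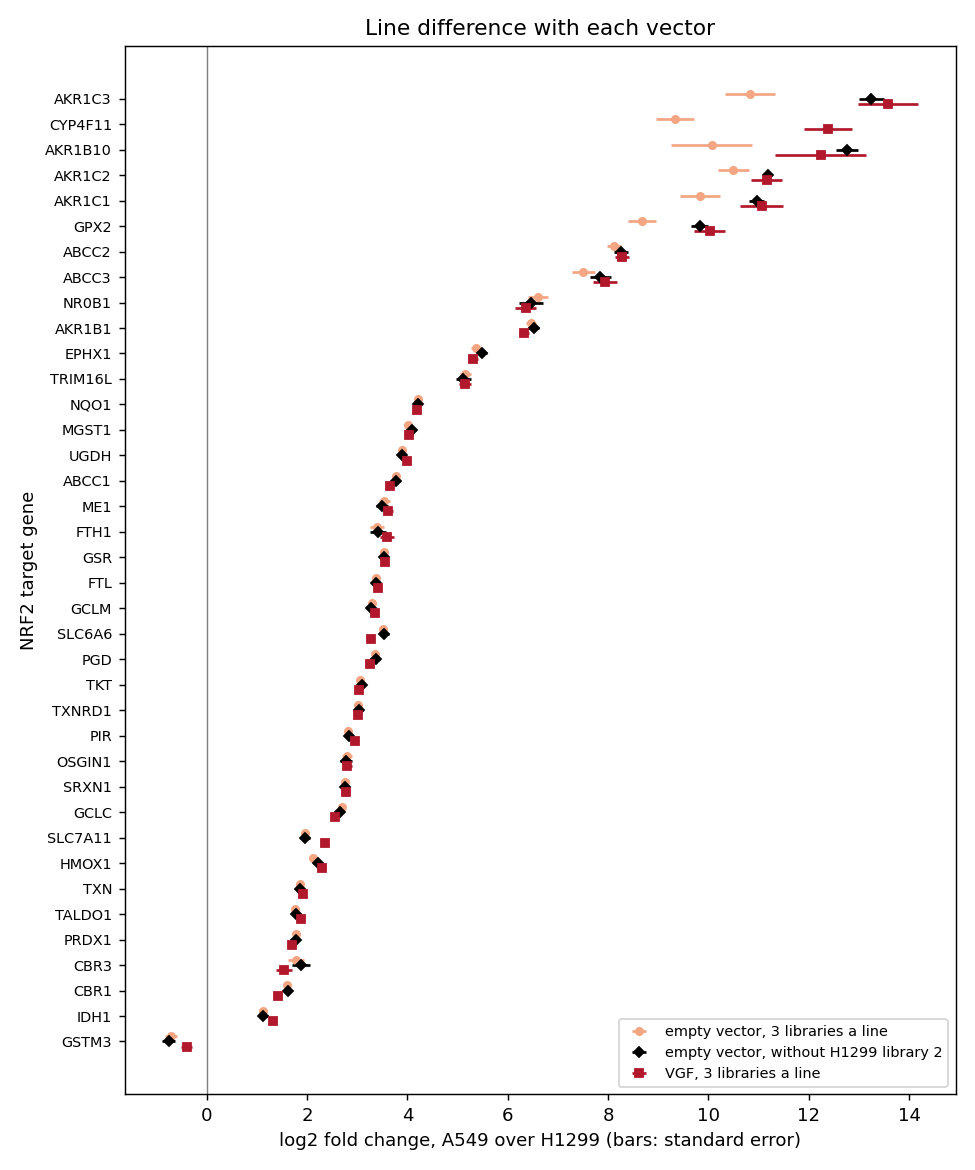
Log2 fold change of A549 over H1299 for each NRF2 target gene, with standard errors, from the empty vector libraries (light circles), the same without H1299 library 2 (black diamonds) and the VGF libraries (red squares). GSTM3 lies below 0 and the other 37 above; the light circles of AKR1C3, CYP4F11, AKR1B10, AKR1C2, AKR1C1 and GPX2 lie to the left of the other symbols. The value of CYP4F11 without library 2 is not drawn, since both remaining libraries had 0 counts.

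H1299 empty vector library 2 was then set against libraries 1 and 3 for all members. It was the highest of the 3 H1299 empty vector libraries for 20 members, the lowest for 4 and between the others for 14. Among the 20 were CBR3, HMOX1 and CBR1, with excesses over libraries 1 and 3 of 5.23, 4.35 and 2.19% of the A549 mean. The order alone cannot tell an added trace from spread between replicates. An addition of 0.137% of the A549 level, the share read from the other features, would raise 6 members by more than 1.5-fold over libraries 1 and 3, namely GPX2, AKR1B10, AKR1C1, AKR1C2, AKR1C3 and CYP4F11. This share leaves out the read-through feature, a choice made after seeing the data, and was 0.284% with it. The number of members raised depends on that choice: at 0.137% ABCC2 would rise 1.42-fold and ABCC3 1.32-fold. In these 6 the measured excess was 0.397% of the A549 mean for GPX2, 0.234% for AKR1B10, 0.179% for AKR1C1, 0.0784% for AKR1C2, 0.132% for AKR1C3 and 0.452% for CYP4F11. ABCC3 had an excess of 0.350% and ABCC2 of 0.101%. Where this RNA came from was not tested. NQO1 and UGDH, at higher levels in H1299, had library 2 between the others, at 124, 127 and 131 CPM and 72.01, 72.6 and 74.2 CPM.

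**Figure D4:**
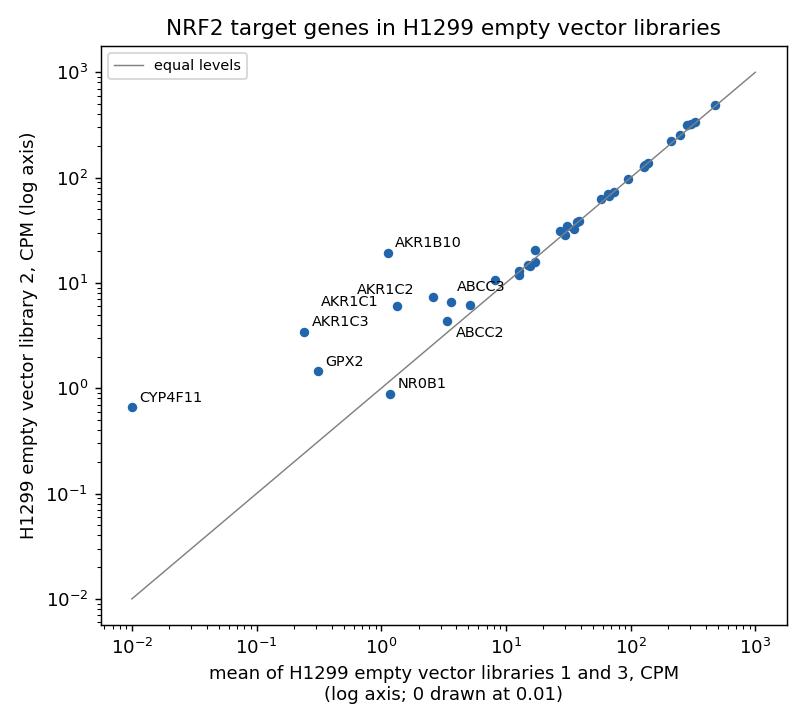
Level of each NRF2 target gene in H1299 empty vector library 2 against the mean of libraries 1 and 3, in CPM on log axes, with the line of equal levels; a mean of 0 is drawn at 0.01. Genes above about 10 CPM lie along the line, while CYP4F11, AKR1C3, AKR1B10, GPX2, AKR1C1 and AKR1C2 lie above it, AKR1B10 at 19.4 against 1.12 CPM.

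Levels of different genes were compared in FPKM, since these are scaled to length. With empty vector FTL led in both lines, at 4940 FPKM in A549 and 549.8 FPKM in H1299. AKR1B10 followed in A549 with 4312 FPKM, above FTH1 with 2180, AKR1B1 with 1706, AKR1C2 with 1554 and AKR1C3 with 1212 FPKM. The libraries of FTH1 and AKR1B1 overlapped in their ranges, while the other neighbours among these 6 were separate. In H1299 the next after FTL were PRDX1 with 325, FTH1 with 222 and TXN with 149.9 FPKM, and AKR1B10 stood 30th of 38 with 4.55 FPKM, or 31st with 0.707 FPKM without library 2. NQO1 was 10th in both lines, at 844 and 53.4 FPKM. GSTM3 was the lowest member in A549 and CYP4F11 the lowest in H1299, at 4.42 and 0.0723 FPKM. The latter comes from library 2 alone, and CYP4F11 is listed at 0 FPKM in libraries 1 and 3.

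Replicates of a group lay close together for most members. The median coefficient of variation of CPM was 4.40% in A549 with empty vector and 5.05% with VGF, and 7.46% and 7.77% in H1299. In A549 with empty vector 35 members were under 10%, and the exceptions were FTH1, OSGIN1 and NR0B1. In H1299 with empty vector 23 members were under 10%.

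The regulators of the pathway were looked at beside its targets. Of 16 regulators 8 were called higher in A549, 4 lower and 4 not, where 38.6% of all features were called higher and 38.5% lower. Their median log2 fold change was 0.27. Without H1299 library 2, 10 were called higher and 4 lower, against 36.6 and 36.1% of features, and KEAP1 and MAFF were the additional ones. NFE2L2, the gene of NRF2 itself, stood at 149, 157 and 166 CPM in A549 and 107, 117 and 114 CPM in H1299, or 0.48 on the log2 scale (SE 0.0579, adjusted p = 5.77e-06). KEAP1 stood at 116, 115 and 105 and 104, 106 and 93.99 CPM, 0.15 on the log2 scale, and did not pass the test (adjusted p = 0.0575). Without H1299 library 2 it did, at 0.17 (adjusted p = 0.0488). Both values lie below the members' median of 3.46, and protein was not measured.

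Among the partners of NRF2 the small MAF genes MAFG and MAFK were higher in A549 by 1.30 and 1.90 on the log2 scale, while MAFF passed without H1299 library 2 (0.46, adjusted p = 0.0293) and not with it (0.34, adjusted p = 0.0673). The repressors BACH1 and BACH2 were lower, by log2 values of -0.92 and -2.14, as was the related factor NFE2L3 with -1.34. NFE2L1, another relative, was higher by 0.21. SQSTM1, the autophagy receptor that binds KEAP1 and is itself an NRF2 target, had a mean of 1042 CPM in A549 and 524 CPM in H1299 (log2 0.99). DPP3, another KEAP1 binder, was higher by 0.50. Of the ligase genes, RBX1 and BTRC were higher by 0.34 and 0.35 and CUL3 lower, at -0.15. The kinase gene GSK3B and the phosphatase gene PGAM5 gave -0.077 and 0.05 and did not pass (adjusted p = 0.115 and 0.531).

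Genes outside the 38 were read from 2 further lists. These lists too were chosen with earlier results of these data known, so they are no independent test of the 38. Of 24 tested genes that are also reported as NRF2 targets, 19 were higher in A549 and 2 lower, where 38.6 and 38.5% of all features were, with a median of 2.03 against -0.006 over all features. The counts were 19 and 2 without H1299 library 2 as well. ALDH1A1 and ALDH3A1, aldehyde dehydrogenases, had means of 4841 and 2729 CPM in A549 and 2.90 and 2.36 CPM in H1299. In H1299 both were highest in library 2, with 0.870, 7.30 and 0.535 CPM and 0.557, 6.17 and 0.365 CPM. UGT1A6, a glucuronosyltransferase at a locus whose gene models share exons, stood at 64.1, 46.1 and 72.2 CPM in A549 and had 4 counts in the 3 H1299 libraries together, all in library 2. CYP4F3, a P450, stood at 82.5, 75.5 and 81.7 CPM in A549 and 0.0669, 0.272 and 0 CPM in H1299. GSTM2 and ABCC5 were lower, at -3.17 and -0.74.

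The other list held paralogs of the members and redox genes from outside the list. Of 33 tested, 20 were higher in A549, 9 lower and 4 not called, against 38.6 and 38.5% of all features, with a median of 0.57. Without H1299 library 2, 18 were higher and 9 lower. MGST2, a microsomal glutathione transferase, had a mean of 17.3 CPM in A549 and 2 counts in the 3 H1299 libraries together, and GPX1, a glutathione peroxidase, 75.7 and 0.125 CPM. GGT1, a gamma-glutamyltransferase, and EPHX2, the soluble epoxide hydrolase, were higher by 7.40 and 3.91 on the log2 scale. The 4 genes most strongly lower were GPX8 (-1.09), PGLS (-0.90), GPX4 (-0.71) and ME3 (-0.69).

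The next comparisons set VGF against empty vector within each line. No member was called in A549, where 0.79% of all features were, and none in H1299, where 0.011% were. At an unadjusted p under 0.05 the counts were 7 members in A549, against 13.9% of features, and 10 in H1299, against 7.8%. Without H1299 empty vector library 2 the count in H1299 fell to 4, against 6.61% of features, namely SLC7A11, OSGIN1, SLC6A6 and CBR1. In A549 it was then 8, against 13% of features. DESeq2 called 3 members in A549 and 1 in H1299, where it called 736 and 139 of all 18228 features. The median log2 fold change was 0.007 in A549 and -0.053 in H1299. The 95% interval lay within 0.5 log2 units of 0 for 31 members in A549 and for 27 in H1299. In A549 the count of members called was also 0 without VGF library 2, the library with endothelial transcripts. In data simulated for the A549 comparison, the test called 35 of 50 genes changed by 0.5 and 6 of 50 changed by 0.25. The simulation gave all genes the same spread beyond counting noise, at a fixed value not estimated from these libraries, and the numbers called depend on that value. The simulation also gave each gene the same starting level in both lines. It therefore does not describe members with a wide spread, such as AKR1B10, whose standard error in A549 was 0.530.

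NQO1 had the smallest standard error of the members in both lines. It stood at 2287, 2298 and 2322 CPM in the A549 VGF libraries and 132, 127 and 120.2 CPM in those of H1299. In A549 every VGF library lay below every empty vector library, by a small margin. On the log2 scale VGF over empty vector was -0.038 in A549 (adjusted p = 0.758) and -0.01 in H1299 (adjusted p = 1.00), with standard errors of 0.0385 and 0.0394. HMOX1, which responds to many stresses, gave 0.12 and -0.048 (adjusted p = 0.579 and 1.00). GCLM gave 0.025 and -0.019 (adjusted p = 0.941 and 1.00). None of the 3 was past the test in either line.

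The smallest adjusted p in A549 was that of OSGIN1, with 108, 113 and 90.6 CPM in the empty vector libraries and 79.3, 77.8 and 88.2 CPM in the VGF libraries. Its groups did not overlap, and the log2 fold change was -0.35 (SE 0.0885, adjusted p = 0.102). It reached an adjusted p of 0.0441 without A549 empty vector library 3 and of 0.0151 in DESeq2. In H1299, OSGIN1 stood at 14.3, 14.8 and 16.1 CPM and 11.2, 10.9 and 13.01 CPM, again without overlap (log2 -0.36, adjusted p = 0.368). The difference between the effects was 0.014 (SE 0.132).

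AKR1B1 stood at 3148, 2776 and 2611 CPM in A549 with empty vector and 2321, 2199 and 2477 CPM with VGF, or -0.29 on the log2 scale (SE 0.0751, adjusted p = 0.109, 0.00402 in DESeq2). NR0B1 stood at 114, 112 and 91.8 and 73.1, 76.1 and 89.3 CPM, with -0.42 (SE 0.136, adjusted p = 0.184). ABCC2 stood at 1029, 1001 and 1037 and 905, 838 and 886 CPM, with -0.22 (adjusted p = 0.294, and 0.0436 with A549 fitted alone). In these 3 every VGF library of A549 was below every empty vector library, and none passed the test in the joint fit. TXN lay the other way, at 469.7, 459 and 477 and 545, 507 and 501 CPM (0.14, adjusted p = 0.161, 0.0253 in DESeq2). GSTM3 gave 0.35 (adjusted p = 0.184) in counts but -0.20 in FPKM. Over all members 6 were higher and 8 lower without overlap in A549, against 9.28 and 9.08% of all features.

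In H1299 the smallest adjusted p was that of SLC7A11, the cystine carrier, with 116, 133 and 147 CPM in the empty vector libraries and 108, 107 and 93.1 CPM in the VGF libraries. Every VGF library was below every empty vector library. The log2 fold change was -0.36 (SE 0.0761, adjusted p = 0.151, and 0.00163 in DESeq2). Of all members 3 were higher and 3 lower without overlap in H1299, against 5.65 and 7.07% of features. In A549 SLC7A11 stood at 505, 508 and 518 and 526, 519 and 524 CPM (0.036, SE 0.0746). The difference between the lines' effects was 0.40 (SE 0.107, adjusted p = 0.220, and 0.0190 in DESeq2). No member was called for that difference in edgeR, where 0.159% of all features were, and 3 members had an unadjusted p under 0.05, against 11.2%. Without H1299 library 2 there were also 3, against 9.87%. DESeq2 called 1, SLC7A11, where it called 318 of all 18228 features.

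The largest fitted changes in H1299 rested on library 2. With all 6 libraries CYP4F11 gave -3.03, AKR1C3 -2.62, AKR1B10 -2.18, GPX2 -1.41, AKR1C1 -1.24 and AKR1C2 -0.50, none past the test (adjusted p from 0.597 to 0.790). Without library 2 AKR1C3 gave -0.20, GPX2 -0.27 and AKR1C1 -0.10, while AKR1B10 turned to 0.51, AKR1C2 to 0.19 and CYP4F11 to 3.06. The last of these sets 3 counts against 0. The levels of AKR1C3 in the H1299 VGF libraries were 0.271, 0.376 and 0 CPM, against 0.290, 3.43 and 0.195 CPM with empty vector, so only library 2 stood out. ABCC2 and ABCC3 moved from -0.38 and -0.57 to -0.23 and -0.23.

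In the fit all 12 libraries share 1 estimate of the spread for each gene, so that library also enters the precision in A549. The standard error of the VGF effect in A549 was 0.530 for AKR1B10 with it and 0.102 without it, 0.255 and 0.0762 for AKR1C1, and 0.194 and 0.0341 for AKR1C2. AKR1C2 stood at 6078, 6026 and 5995 CPM in A549 with empty vector and 6783, 6550 and 6911 CPM with VGF, without overlap. Its log2 fold change of 0.16 had an adjusted p of 0.815 with H1299 library 2 and 0.0660 without it. AKR1B10 gave -0.01 and AKR1C1 -0.004 in A549.

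**Figure D5:**
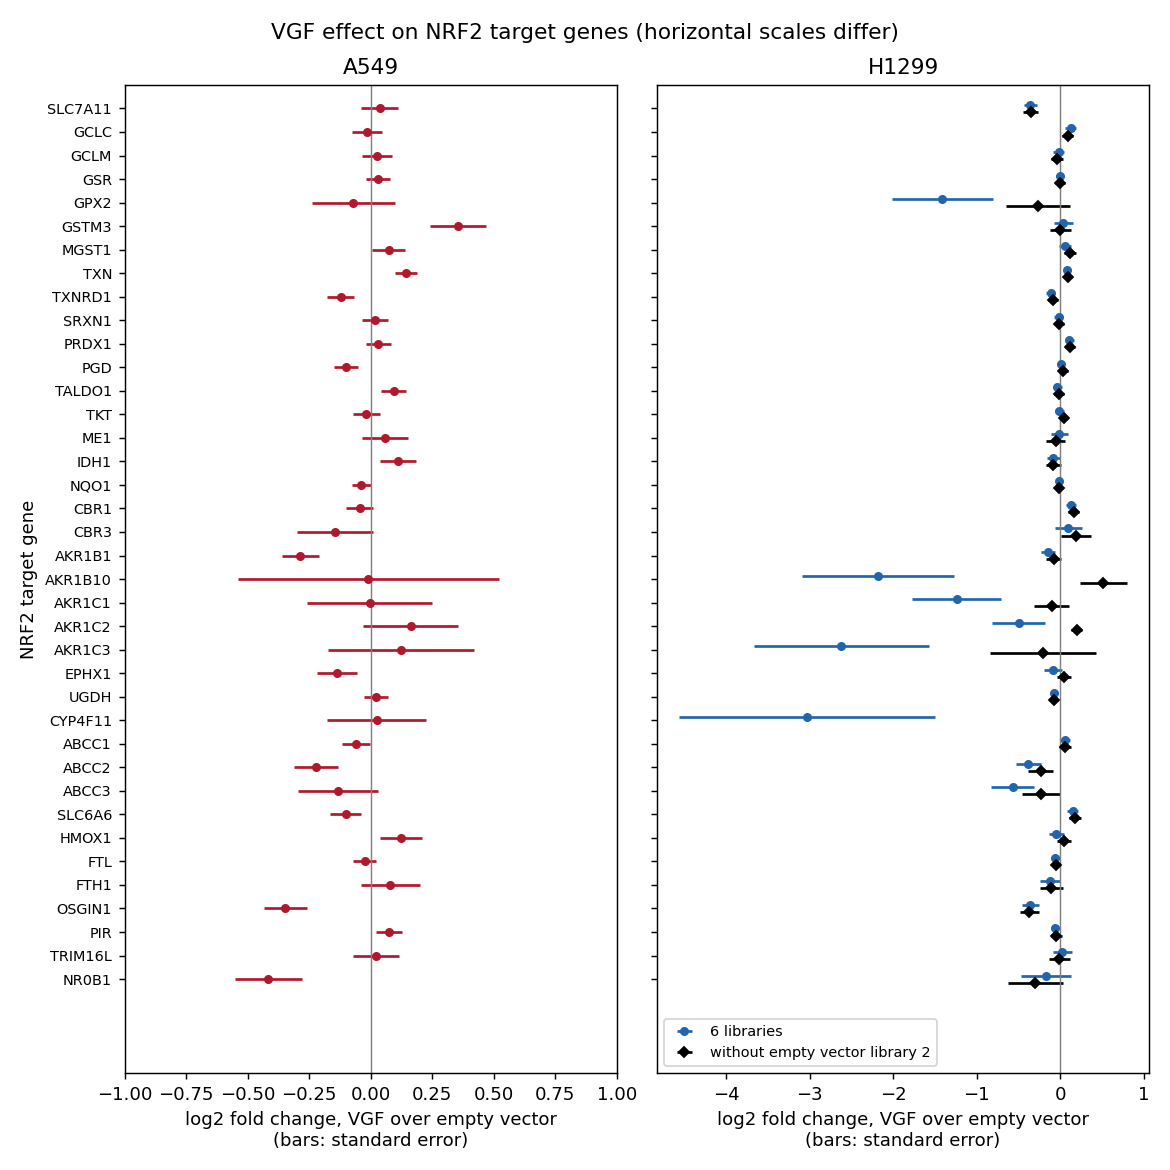
Log2 fold change of VGF over empty vector for each NRF2 target gene in A549 (left) and H1299 (right), with standard errors, on horizontal scales that differ; black diamonds leave out H1299 empty vector library 2. In A549 every value lies between -0.42 and 0.35. In H1299 the values of GPX2, AKR1B10, AKR1C1, AKR1C3 and CYP4F11 below -1 come from the fit with library 2, and CYP4F11 is not drawn without it.

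Of the regulators none was called for VGF in either line, with the smallest adjusted p at 0.144 in A549 and 0.509 in H1299. NFE2L2 gave 0.019 and 0.003, and KEAP1 -0.12 and -0.082. None of the 24 further targets was called. Of the 33 paralogs and redox genes 1 was called in A549, where 0.79% of all features were. This was SOD2, the mitochondrial superoxide dismutase. It stood at 362, 353 and 364 CPM with empty vector and 303, 310.2 and 319.9 CPM with VGF, or -0.21 on the log2 scale (SE 0.0402, adjusted p = 0.0376). The call held in 3 of the 12 fits that left out 1 library: it was lost without any 1 of the 6 A549 libraries (adjusted p from 0.0598 to 0.125) and without H1299 empty vector library 3 or H1299 VGF library 1 or 2 (0.0529 to 0.0586). It was lost on FPKM as well (adjusted p = 0.745 and 0.749 at pseudocounts of 1 and 0.1) and with A549 fitted alone (0.0564), while the log2 value stayed between -0.23 and -0.19 in the fits with 1 library left out. The call was kept in DESeq2 (adjusted p = 0.000117), with upper-quartile scaling (0.0302) and with no filter on low counts (0.0481). In H1299 SOD2 stood at 119, 109 and 113 and 122, 124 and 122 CPM (0.11, adjusted p = 0.568), and the difference between the effects had an adjusted p of 0.0581.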

How the data were processed

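The members and gene lists were chosen with earlier results of these data known. The authors deposited raw counts per feature and FPKM, a level per length and depth. GRCh38 and DESeq2 are named in the submitters' processing notes. Which aligner, counter, annotation and strand setting the authors used is not given in the sources used here. Another 18 lines without a feature were left out.

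Counts of all 12 libraries were fitted in edgeR 4.0.16 (R 4.3.3) after filterByExpr and with TMM factors, as 4 group means, with 8 residual and 4.44 prior degrees of freedom. Its quasi-likelihood F test was adjusted by Benjamini-Hochberg over 18228 features and called at 0.05. Standard errors come from the F statistic, and intervals of changes from the t distribution. P-values measure the spread between these libraries. Every pair of replicates differed by more than sampling noise (chi-square per degree of freedom 7.82 to 21.8). The test was checked on simulated counts of 17507 genes, with 4 false calls.

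Alternatives were DESeq2 1.42.0, upper-quartile scaling, no filter, limma 3.58.1 on log2(FPKM + 1) and log2(FPKM + 0.1), a replicate block, each line alone, and each library left out. Members with at least 5 CPM in a group and a call between the lines with an absolute log2 fold change over 2 are given in every empty vector library. Only some of them are also given in the VGF libraries. All 16 regulators are named, up to 4 genes per direction of each other list with at least 5 CPM, and any gene called for VGF. Gene overlaps come from GENCODE 29 (GRCh38), and shared sequence was measured over 75-base windows of the exons.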

Additional observations from a re-analysis of the deposited data

How the results depend on the processing

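Each member was called between the lines, in both comparisons, in every fit that left out 1 library, and in every other fit of counts except that DESeq2 gave no adjusted p for AKR1B10 and AKR1C3. The same direction held for all members in all of these fits. On FPKM 37 members were called with empty vector, all but GSTM3. Upper-quartile scaling moved the median of all features to -0.11 and FPKM to -0.12 (pseudocount 1) or -0.19 (0.1). With upper-quartile scaling 6508 features were higher and 7613 lower, and on FPKM 5962 and 8091 or 6044 and 8148.

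For VGF in A549, no member was called, but DESeq2 called 3, the line fitted alone 1, and leaving out 1 library 0 to 1 (OSGIN1, without A549 empty vector library 3). In H1299 DESeq2 called 1 member and for the difference between the effects 1. Over all features, 144 were called in A549, 736 with DESeq2, and 52 to 130 with 1 library left out (52, 76 and 83 without A549 empty vector library 1, 2 or 3, 57 without A549 VGF library 3, and 94 without H1299 empty vector library 1). In H1299 2 were called, 139 with DESeq2, 5 with no filter, 4 on FPKM with a pseudocount of 1, 4 with the line alone and 1 to 4 with 1 library left out. The highest, 4, came without A549 VGF library 2 or H1299 VGF library 2, and 1 came without A549 VGF library 3 or H1299 empty vector library 2 or 3. For the difference 29 were called, 318 with DESeq2 and 18 to 36 with 1 library left out (18 without H1299 empty vector library 2, and 19 without A549 empty vector library 1 or H1299 VGF library 1). The causes were not tested.

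Replicate numbers do not pair the libraries: none of 18 same-numbered pairs had a correlation of deviations over 0.1 (range -0.155 to 0.0554), and 1 of 12 libraries was closest to its own number. With a replicate block SOD2 had an adjusted p of 0.0923 for VGF in A549, all 38 members were called between the lines and none for VGF. Over all features the block gave 43 calls for VGF in A549. It gave 1 in H1299, and the difference between the effects had 2.

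On FPKM the VGF effect on GSTM3 in A549 turned from 0.35 to -0.20 (pseudocount 1) and -0.23 (0.1). With 1 library left out, the VGF effect in H1299 ran from -2.705 to 0.513 for AKR1B10, from -0.783 to 0.194 for AKR1C2 and from -6.101 to 3.06 for CYP4F11. Each positive value is from the fit without H1299 empty vector library 2. The sum of A549-type features in that library was 0.284% of A549 with the read-through feature and 0.137% without it, an alternative chosen after seeing the data. It was 0.07575% for features of at least 100 CPM and 0.248% for those of at most 0.2 CPM in H1299. With all 84 features the H1299 VGF libraries gave 0.123 to 0.368%.

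Depth limits what can be said of CYP4F11, AKR1C3 and GPX2 in H1299, where every library but empty vector library 2 held under 20 counts. Their folds between the lines vary with 1 library and are orders of size.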

Other observations

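PRDX2, a peroxiredoxin that most cells express strongly, had means of 0.293 CPM in A549 and 0.196 CPM in H1299 with empty vector. It stood at 0.103, 7.08 and 0.259 CPM in the A549 VGF libraries, highest in library 2. GPX1 stood at 0, 0.204 and 0.170 CPM in H1299 with empty vector and MGST2 at 0, 0.0454 and 0 CPM. The cause of these low values was not tested, and a value near 0 in this table was not taken as absence of the gene's RNA.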
